A study of Mus musculus with 10 samples.

Results

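Replication licensing genes code for the proteins that load the replicative helicase onto DNA before S phase. The set described here has 10 genes, Mcm2, Mcm3, Mcm4, Mcm5, Mcm6, Mcm7, Mcm10, Cdc6, Cdt1 and Orc1, chosen by name. All 10 were found among the 28125 genes of the scRNA-seq matrix and among the 30670 genes of the scATAC-seq matrix, and all 10 passed the filters on low values. Their levels were read in the 13 cell populations that the authors defined from scRNA-seq, and set in order along spermatogenesis around preleptotene (pL), where premeiotic S phase takes place. S phase itself was not measured in these data.

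Nuclei of whole testes came from juvenile wild-type mice of the C57BL/6J strain, at 11, 17 or 25 dpp, and from adults of 8 weeks that were Cre/+ or Nfya-CKO. The Cre/+ mice carry Stra8-Cre, which is driven in male germ cells. The Nfya-CKO mice are Nfya fl/fl; Stra8-Cre, so that floxed exons of Nfya, the DNA-binding subunit of the CCAAT-binding factor NF-Y, are removed in cells in which Cre has acted. RNA and accessible chromatin were measured together, with 1 library per condition and assay, and the number of mice per library is not given in the sources used here. The matrices pool all libraries within a population, so no value has a replicate, an error or a p-value. Neighbouring levels in any order given below therefore cannot be judged against a spread. RNA values are shares of all UMIs in a population, so a lower value need not mean fewer transcripts per cell. Fewer cells with a transcript and less transcript per cell also cannot be told apart in these pooled means.

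Several properties of the libraries touch every value. Of 1761 pL cells, 1045 were from 11 dpp and 672 from 17 dpp, and 92.0% of the 1292 undifferentiated spermatogonia (undiff. SpG) were juvenile. Of 927 differentiating spermatogonia (diff. SpG), 783 were from adult Cre/+ testes, so age and library cannot be told apart from stage. Total depth was 13781605 UMIs in undiff. SpG, 7154120 in diff. SpG, 16001344 in pL and 9778830 in the 491 spermatogonia of the library labelled Nfya-CKO (SpG Nfya-CKO). Of 39674 scRNA-seq cell barcodes, 5030 (12.7%) were present in more than 1 library, against 0.286% in scATAC-seq. Between the Cre/+ and Nfya-CKO libraries 3813 barcodes were shared, which is 74.0% of the Nfya-CKO library. Among these, 143 barcodes were named SpG Nfya-CKO in the Nfya-CKO library, with a median of 21876 UMIs, and diff. SpG in the Cre/+ library, with a median of 2378 UMIs. They make up 15.4% of the diff. SpG cells. A further 305 barcodes of diff. SpG cells in the Cre/+ library were named other somatic cells in the Nfya-CKO library. In all, 454 of 925 diff. SpG cells with a library name (49.1%) shared a barcode with another library. So did 712 of 1193 elongating spermatids (ES, 59.7%). The share was 19.0% in pL, 32.5% in undiff. SpG, 35.6% in SpG Nfya-CKO and 3.30% to 24.8% in spermatocytes after pL. Cells with a shared barcode cannot be removed from the pooled means. The counts of genes below were repeated after subtracting the SpG Nfya-CKO column from diff. SpG in the proportion of 15.4%, which leaves the barcodes shared with other somatic cells in place. The Leydig transcript Insl3 was at 0.893 UMIs per 10000 in diff. SpG, 39.8 in SpG Nfya-CKO and 177.5 in other somatic cells. By Insl3, diff. SpG could hold at most 2.24% of RNA like that of SpG Nfya-CKO or 0.503% like that of other somatic cells, so the subtraction removed more than this transcript allows.

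Spermatid markers were high in diff. SpG and Leydig markers in SpG Nfya-CKO, and the source of these transcripts was not tested. Zbtb16 was 8.74 UMIs per 10000 in undiff. SpG, 1.20 in diff. SpG and 4.15 in SpG Nfya-CKO, and Sall4 was at 4.88, 0.907 and 2.08. Of the other spermatogonial markers, Gfra1 was at 1.08, 0.198 and 1.20 and Uchl1 at 5.88, 4.79 and 11.0, both higher in SpG Nfya-CKO than in undiff. SpG. Kit, a marker of differentiating spermatogonia, was at 0.548, 1.56 and 1.08, and Dmrtb1, a further such marker, at 0.133, 1.04 and 0.173. The premeiotic gene Stra8 was 4.86 in pL, 2.59 in diff. SpG and 0.969 in SpG Nfya-CKO. Rec8, also read as a marker of pL, was at 0.298 in pL and 0.457 in diff. SpG. Kit and Dmrtb1 were at 2.09 and 1.03 in pL. Of these markers only Stra8 thus set pL apart from diff. SpG in the direction of its name. The 3 spermatid markers Acrv1, Tnp1 and Prm1 were at 1.18, 1.5 and 3.94 in diff. SpG, against 0.157, 0.0915 and 0.155 in undiff. SpG. The Leydig markers Insl3, Cyp17a1 and Star were at 39.8, 7.39 and 1.03 in SpG Nfya-CKO, against 0.0640, 0.0207 and 0.0728 in undiff. SpG. The counts of genes were therefore also repeated after subtraction of ES RNA from diff. SpG, in proportion to Prm1, and of other somatic RNA from SpG Nfya-CKO, in proportion to Insl3. Transcripts of Nfya itself were not reduced in that library, at 1.11 in SpG Nfya-CKO, 0.456 in undiff. SpG and 0.667 in diff. SpG. A value per gene does not show which exons were read, so every direction drawn from this library rests on its label. That library held 0 mid and late pachytene cells, 0 round spermatids and 0 ES, while the Cre/+ library held 5639 round spermatids. The study reports a lack of spermatocytes in Nfya-CKO testes, so these cell counts run the way the label says.

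Origins of replication are licensed in steps. ORC, of which ORC1 is the largest subunit, binds DNA and recruits the ATPase CDC6. CDC6 and the loader CDT1 then bring in MCM2 to MCM7, the ring of related ATPases that forms the core of the replicative helicase. MCM10 acts later, when the loaded helicase is switched on. In the testis spermatogonia replicate at each mitotic division, pL cells replicate a last time before meiosis, and spermatocytes and spermatids do not undergo a further S phase.

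The RNA of 6 of the 10 genes was highest in pL among the 9 control germ cell populations. These were Mcm3, Mcm4, Mcm5, Mcm6, Cdc6 and Orc1. Over all 15250 genes with a mean of at least 0.05 UMIs per 10000, 17.8% were highest in pL. Mcm2 and Mcm7 were highest in diff. SpG, where 5.66% of all genes were, and Mcm10 and Cdt1 in undiff. SpG, where 19.2% were. The first population stood over the next by a ratio of 1.07 for Mcm10 to 1.40 for Cdc6, so the place of the maximum rests on small ratios. The ratio of the highest to the lowest control germ cell population was larger, from 3.21 for Mcm7 to 23.0 for Mcm2. After either subtraction, which was chosen after the data were seen, 6 genes were again highest in pL.

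**Figure D1:**
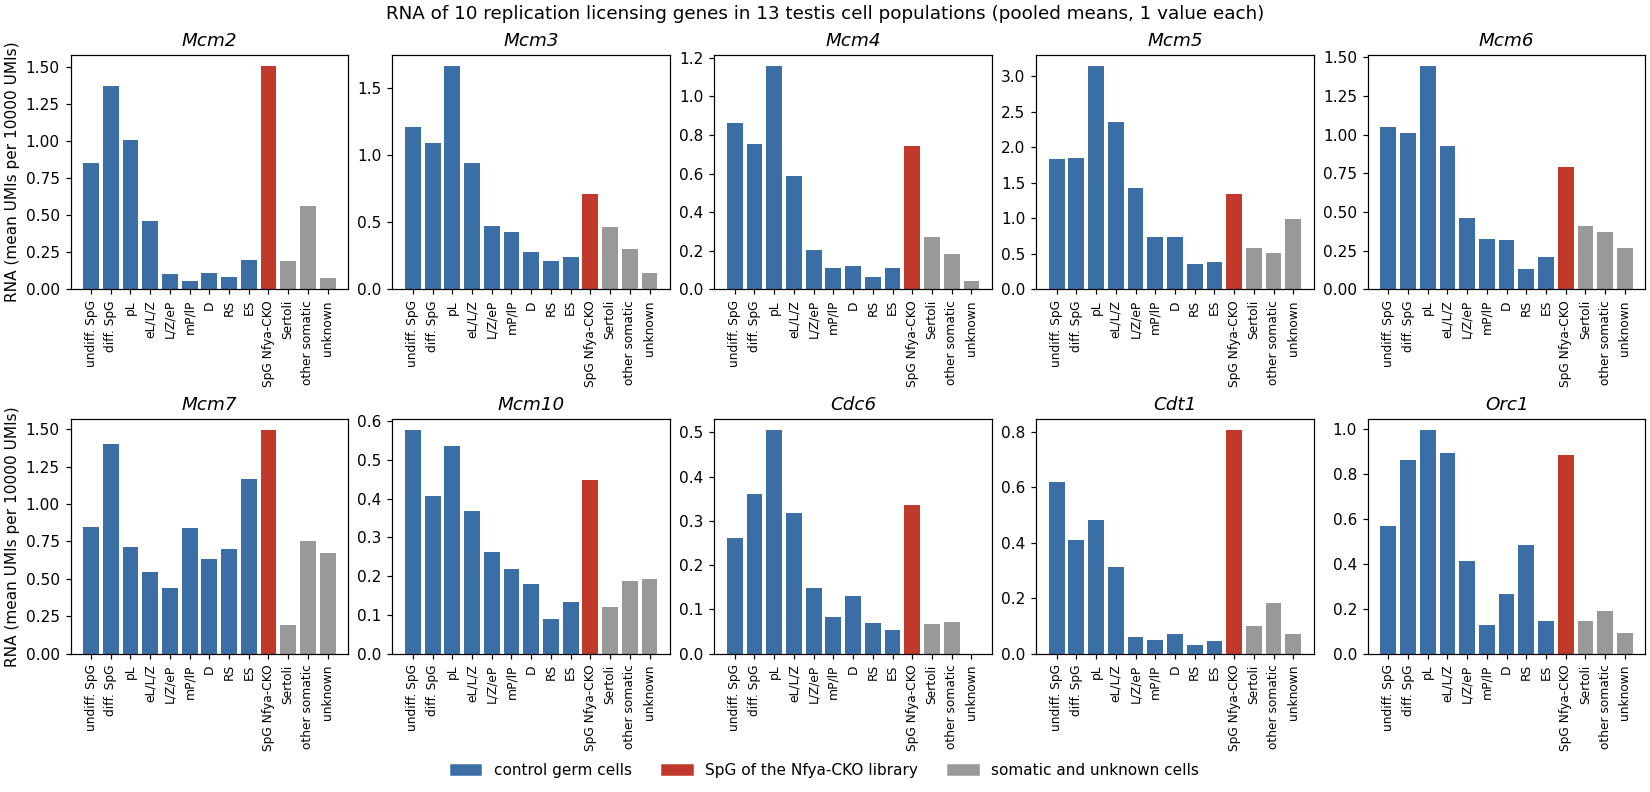
Each panel gives 1 gene, and each bar the mean RNA of a population in UMIs per 10000 UMIs, with control germ cells in blue, spermatogonia of the Nfya-CKO library in red and somatic and unknown cells in grey. Bars are pooled values without replicates, and the axes differ between panels. Mcm5 peaks in pL at 3.14, whereas Mcm7 has a further high value in ES at 1.17.

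The hexamer genes came first. Mcm5 (GRCm38, chr8:75109569-75128439, plus strand) was at 1.84 UMIs per 10000 in undiff. SpG, 1.85 in diff. SpG, 3.14 in pL, 2.35 in eL/L/Z (leptotene from its start, with zygotene), 1.43 in L/Z/eP (leptotene to early pachytene), 0.740 in mP/lP (mid and late pachytene), 0.740 in diplotene (D), 0.361 in round spermatids (RS) and 0.391 in ES. It was thus highest in pL and stood higher in eL/L/Z than in either spermatogonial population. Mcm6 (chr1:128331590-128359664, minus strand) was at 1.05, 1.01, 1.44, 0.925, 0.463, 0.323, 0.319, 0.135 and 0.211 in the same order. Its level in undiff. SpG and diff. SpG was nearly the same, and the value in RS was 10.7 times below that in pL.

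Mcm3 (chr1:20802968-20820312, minus strand) and Mcm4 (chr16:15623897-15637400, minus strand) had the same order over the first 4 populations as Mcm6. Mcm3 was at 1.21 in undiff. SpG, 1.09 in diff. SpG, 1.67 in pL, 0.947 in eL/L/Z and 0.476 in L/Z/eP, with 0.215 to 0.429 in the later populations. Mcm4 was at 0.861 in undiff. SpG, 0.754 in diff. SpG, 1.16 in pL, 0.588 in eL/L/Z and 0.206 in L/Z/eP, with 0.0620 to 0.121 in the later populations. Both were lowest in RS.

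Mcm2 (chr6:88883474-88898780, minus strand) was highest earlier. It was at 0.855 in undiff. SpG, 1.38 in diff. SpG, 1.01 in pL, 0.461 in eL/L/Z, 0.101 in L/Z/eP, 0.0598 in mP/lP, 0.107 in D, 0.0821 in RS and 0.202 in ES. Mcm2 had the largest ratio of highest to lowest among the 10 genes. After subtraction of ES RNA the diff. SpG value was 1.5, and after subtraction of SpG Nfya-CKO RNA it was 1.35, and diff. SpG was the highest control population in both, with the barcodes shared with other somatic cells not subtracted.

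Mcm7 (chr5:138164583-138172422, minus strand) did not follow the others. It was at 0.847 in undiff. SpG, 1.40 in diff. SpG, 0.713 in pL, 0.547 in eL/L/Z, 0.436 in L/Z/eP, 0.839 in mP/lP, 0.635 in D, 0.701 in RS and 1.17 in ES. The level in ES was the second highest of the control germ cells, in a population where the other 5 hexamer genes were at 0.111 to 0.391. Among control germ cells the somatic markers Sox9, Clu, Insl3, Cyp17a1 and Star were highest in ES, at 1.90, 31.3, 3.81, 0.809 and 0.905. The other somatic markers read, Amh, Cd68, Adgre1, Csf1r, Acta2, Myh11, Pecam1 and Cdh5, were highest in other control populations. Of these Amh was lowest in ES, at 0.00436. Mcm7 was at 0.755 in other somatic cells. By Insl3, ES could hold at most 2.15% of RNA like that of other somatic cells. The part of somatic RNA in the Mcm7 level in ES was not tested. Pearson's r over the 9 control germ cell populations, on log2(value + 0.1), had a median of 0.0364 between Mcm7 and the other 9 genes, against medians of 0.768 to 0.964 for each of those. These r are descriptions over 9 pooled columns of the same libraries. The Mcm7 gene model hosts Mir25, Mir93 and Mir106b and overlaps Ap4m1 by 421 bases and Cops6 by 64 bases on the opposite strand. Ap4m1 was at 0.418 in ES and 0.416 in diff. SpG, and Cops6 at 0.908 and 0.898, both under the Mcm7 values there. Whether counting used the strand is not given in the sources used here, so reads in the overlaps cannot be told apart.

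**Figure D2:**
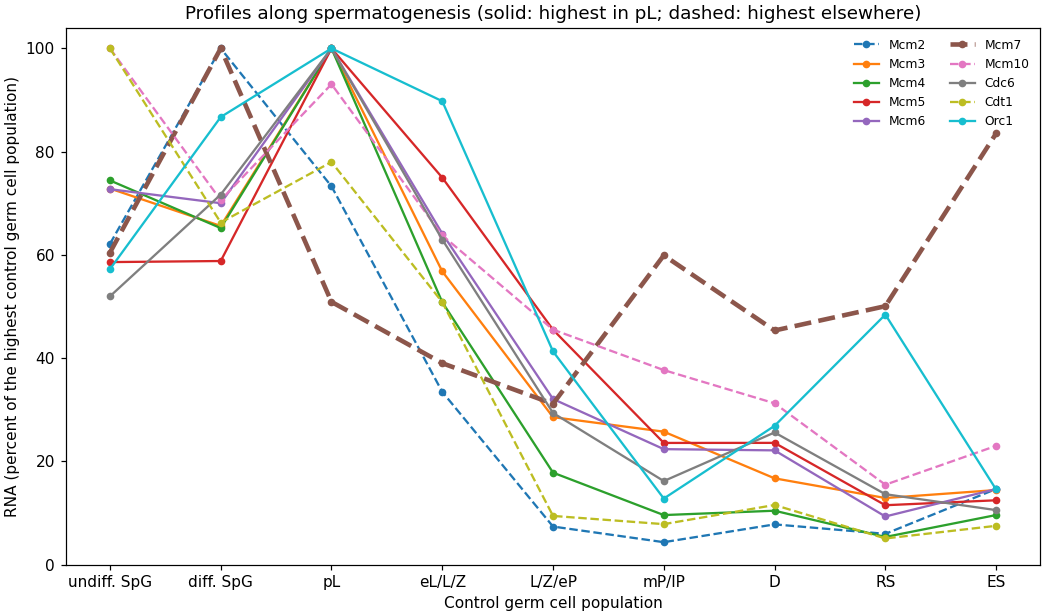
RNA of each gene as a percent of its highest control germ cell population (y axis), over the 9 populations in order of spermatogenesis (x axis), with solid lines for genes highest in pL and dashed lines for the others. From L/Z/eP on, all genes but Mcm7, the thick dashed line, lie below both of their own spermatogonial levels, and Orc1 has a further high value in RS at 0.481 UMIs per 10000.

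The loading factors follow. Cdc6 (chr11:98907801-98923940, plus strand) was at 0.262 in undiff. SpG, 0.362 in diff. SpG, 0.505 in pL, 0.318 in eL/L/Z and 0.148 in L/Z/eP, with 0.0533 to 0.129 later. It was listed at 0 in the 99 cells named unknown, where 3 UMIs would give 0.0404 per 10000. Orc1 (chr4:108579423-108614833, plus strand) was at 0.568, 0.860, 0.992, 0.891 and 0.410 in the first 5 populations, then 0.127 in mP/lP, 0.267 in D, 0.481 in RS and 0.144 in ES. It had the smallest step from pL to eL/L/Z of the 10 genes and a further high value in RS. The Orc1 model overlaps Gm12743, a noncoding gene of the opposite strand that is not in the RNA matrix, over 22409 bases.

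Cdt1 (chr8:122568015-122573554, plus strand) was at 0.618 in undiff. SpG, 0.410 in diff. SpG, 0.482 in pL, 0.314 in eL/L/Z and 0.0583 in L/Z/eP, with 0.0313 to 0.0714 later. All 5540 bases of the Cdt1 model lie inside the readthrough model Gm20388 on the same strand, which was at 18.6 to 34.9 over the 13 populations. Reads from Cdt1 could be split between both models, so its values are uncertain. Mcm10 (chr2:4989714-5012791, minus strand), the activation factor, was at 0.577 in undiff. SpG, 0.407 in diff. SpG, 0.537 in pL, 0.368 in eL/L/Z and 0.263 in L/Z/eP, with 0.0893 to 0.217 later. It had no clear maximum among spermatogonia and pL.

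In somatic cells the genes were detected as well. Over the 10 genes the level was 0.0677 to 0.576 in Sertoli cells and 0.0718 to 0.755 in the other somatic cells. In both, Cdc6 was the lowest. The highest were Mcm5 in Sertoli cells and Mcm7 in the other somatic cells. Of 5880 other somatic cells with a library name, 70.1% shared a barcode with another library, and the part of this in the values was not tested.

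From undiff. SpG to diff. SpG, 5 genes were higher and 5 lower, while 56.8% of all genes were higher. None of the 10 reached a ratio of 2, which 9.57% of all genes exceeded upward and 6.28% downward. Ratios of RNA here and below are on the scale of value + 0.1, which understates changes of low genes. On that scale the log2 difference was 0.63 for Mcm2 and 0.66 for Mcm7, the largest upward, and fell by 0.49 for Cdt1 and 0.42 for Mcm10. From diff. SpG to pL, 8 genes were higher, and the median log2 difference was 0.36, whereas 47.1% of all genes were higher. Mcm5 differed most upward, at 0.73, and Mcm7 most downward, at -0.88. From undiff. SpG to pL, 7 genes were higher, with a median of 0.41, and 44.4% of all genes were. Cdc6 and Mcm5 were both at 0.74 and Orc1 at 0.71. No gene reached 2-fold in either of these comparisons. Upward, 1.27% and 2.42% of all genes did, and downward 10.9% and 6.19%.

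After pL the genes were lower together. All 10 genes were lower in eL/L/Z than in pL, with log2 differences of -0.98 for Mcm2 to -0.14 for Orc1 and a median of -0.51, whereas 57.5% of all genes were higher. None was 2-fold lower, and 0.59% of all genes were. All 10 were lower again in L/Z/eP than in eL/L/Z, with a median of -0.86, while 42.8% of all genes were higher. Here Mcm2 (-1.48), Cdt1 (-1.39) and Mcm4 (-1.17) were at least 2-fold lower, or 3 of 10 against 3.97% of all genes. The smallest difference was that of Mcm7, at -0.27. With a pseudocount of 0.5 in place of 0.1 the count was 0, and with 0.01 it was 5. From L/Z/eP to mP/lP, 9 genes were lower, while 39.9% of all genes were higher. Orc1, at -1.17, was the only one past 2-fold, against 3.54% of all genes, and with a pseudocount of 0.5 none was. Mcm7 was higher, at 0.81.

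Summed over Mcm2 to Mcm7, RNA was 6.67 UMIs per 10000 in undiff. SpG, 7.48 in diff. SpG, 9.13 in pL, 5.82 in eL/L/Z, 3.11 in L/Z/eP, 2.50 in mP/lP, 2.20 in D, 1.56 in RS and 2.33 in ES. The share of each gene in this sum is given to follow 1 gene across populations, not to compare genes, since values are not per length. Mcm5 made up 27.6% in undiff. SpG, 34.4% in pL and 45.9% in L/Z/eP. Mcm2 made up 18.4% in diff. SpG, 11.1% in pL and 2.39% in mP/lP. Mcm7 made up 7.81% in pL, 33.5% in mP/lP, 45.1% in RS and 50.3% in ES. The products of these genes form a ring with equal numbers of each subunit, and the RNA shares differed between stages to unequal degrees. Over the control germ cells the share of Mcm3 ran from 10.4% to 18.3%, that of Mcm6 from 8.64% to 15.9% and that of Mcm4 from 3.98% to 12.9%, less widely than those of Mcm2 and Mcm7.

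**Figure D3:**
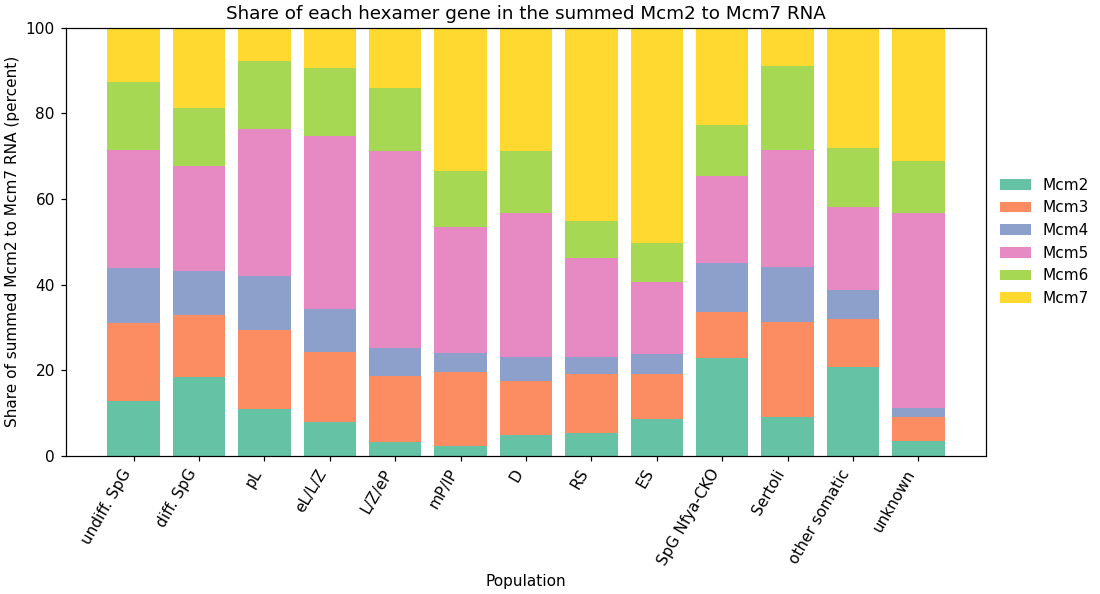
Stacked bars give the percent of the summed Mcm2 to Mcm7 RNA (y axis) that comes from each gene in each of the 13 populations (x axis). The Mcm7 part is 7.81% in pL and 50.3% in ES, and the Mcm2 part is 22.9% in SpG Nfya-CKO against 12.8% in undiff. SpG.

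The other genes of DNA replication were set beside the 10 as lists of named factors, and their counts highest in pL stand against the 17.8% of all genes. Of 9 further ORC subunits and licensing regulators, 5 were highest in pL, namely Orc2 (1.61), Orc3 (1.06), Orc6 (1.24), Gmnn (1.17), which codes for the CDT1 inhibitor geminin, and Mcmbp (1.74), which codes for an MCM-binding protein. Orc4 was highest in eL/L/Z, Orc5 in diff. SpG, and Lrwd1 and Kat7 in mP/lP. Kat7, a histone acetyltransferase that acts with ORC, varied little, from 1.62 to 2.36 over the control germ cells. Of 12 genes of origin firing, 6 were highest in pL, among them Ticrr (1.26) and Dbf4 (1.52), which codes for the activator of the CDC7 kinase. Cdc45, a helicase cofactor, and Mtbp were instead highest in RS, at 0.873 and 2.26.

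Of 26 genes of the replication fork, 15 were highest in pL, and of 6 genes of nucleotide supply 4 were. Pcna, the sliding clamp of the polymerases, was at 0.569 in undiff. SpG, 0.457 in diff. SpG and 1.24 in pL. Rrm2, the small subunit of ribonucleotide reductase, was at 0.213, 0.716 and 0.987. From pL to eL/L/Z, 22 of 26 fork genes and 9 of 12 firing genes were lower, and 1 fork gene was past 2-fold. The median log2 difference in this step was -0.22 for the fork and -0.26 for firing, nearer to 0 than the -0.51 of the 10 licensing genes. For nucleotide supply it was -0.66, farther from 0 than that of the licensing genes, with 5 of 6 genes lower and 1 past 2-fold. For the 9 other ORC and licensing control genes it was -0.09, with 7 lower, nearest to 0 of these lists. The MCM paralogs outside the licensing ring were ordered differently. Mcmdc2, which is known for its part in meiotic recombination, was at 0.104 in pL and 0.846 in mP/lP, Mcm8 was highest in eL/L/Z at 0.560, and Mcm9 was at 0.490 in undiff. SpG and 0.480 in pL.

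In the library labelled Nfya-CKO, the 10 genes did not move in 1 direction. Against undiff. SpG, 5 were higher and 5 lower, with a median log2 difference of 0.04, and 50.9% of all genes were higher. None was 2-fold apart, against 4.09% of all genes higher and 3.08% lower. Mcm2 was at 1.51 in SpG Nfya-CKO against 0.855 in undiff. SpG, and Mcm7 at 1.49 against 0.847, which is 0.75 on the log2 scale for each. Mcm3 was at 0.711 against 1.21, a log2 difference of -0.70, and Mcm5 at 1.34 against 1.84, a difference of -0.43. Orc1 was at 0.883, Cdt1 at 0.807, Mcm6 at 0.788, Mcm4 at 0.743, Mcm10 at 0.449 and Cdc6 at 0.336. Mcm2, Mcm7 and Cdt1 were higher there than in any of the other 12 populations. The sum of Mcm2 to Mcm7 was 6.58, close to the 6.67 of undiff. SpG, while the shares of Mcm2 and Mcm7 in it were 22.9% and 22.7%, against 12.8% and 12.7%.

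The values of Mcm2 and Mcm7 in SpG Nfya-CKO were near those of diff. SpG, with log2 differences of 0.12 and 0.09. Against diff. SpG none of the 10 genes was 2-fold apart, where 6.86% of all genes were higher and 10.5% lower. Cdt1 differed most, at 0.83, and Mcm3 was at -0.56. After subtraction of the SpG Nfya-CKO column from diff. SpG in the proportion of shared barcodes, 1 gene was 2-fold higher. Against pL, 7 genes were lower, while 57.4% of all genes were higher. Mcm5 (-1.17) and Mcm3 (-1.12) were at least 2-fold lower, or 2 of 10 against 4.73% of all genes. None was 2-fold higher, against 9.05%. Mcm7 was higher than in pL, at 0.97, Cdt1 at 0.64 and Mcm2 at 0.54. After subtraction of other somatic RNA, 22.4% of the SpG Nfya-CKO column, the counts against pL were 0 lower and 1 higher, and Mcm2 and Mcm7 in SpG Nfya-CKO were at 1.78 and 1.71. Pcna was at 0.239 in SpG Nfya-CKO and Rrm2 at 0.115, below all 3 of these control populations, whereas Gmnn at 0.897 lay between undiff. SpG and diff. SpG. Against undiff. SpG, Pcna and Rrm2 had the lowest ratios of their lists, and most other genes of these lists were higher in SpG Nfya-CKO. Of the 26 fork genes 17 were higher, with a median log2 difference of 0.10, 3 at least 2-fold higher and none 2-fold lower. Of the 6 nucleotide supply genes 4 were higher, with a median of 0.12. Over all genes 50.9% were higher, with a median of 0.008, and 4.09% were at least 2-fold higher.

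**Figure D4:**
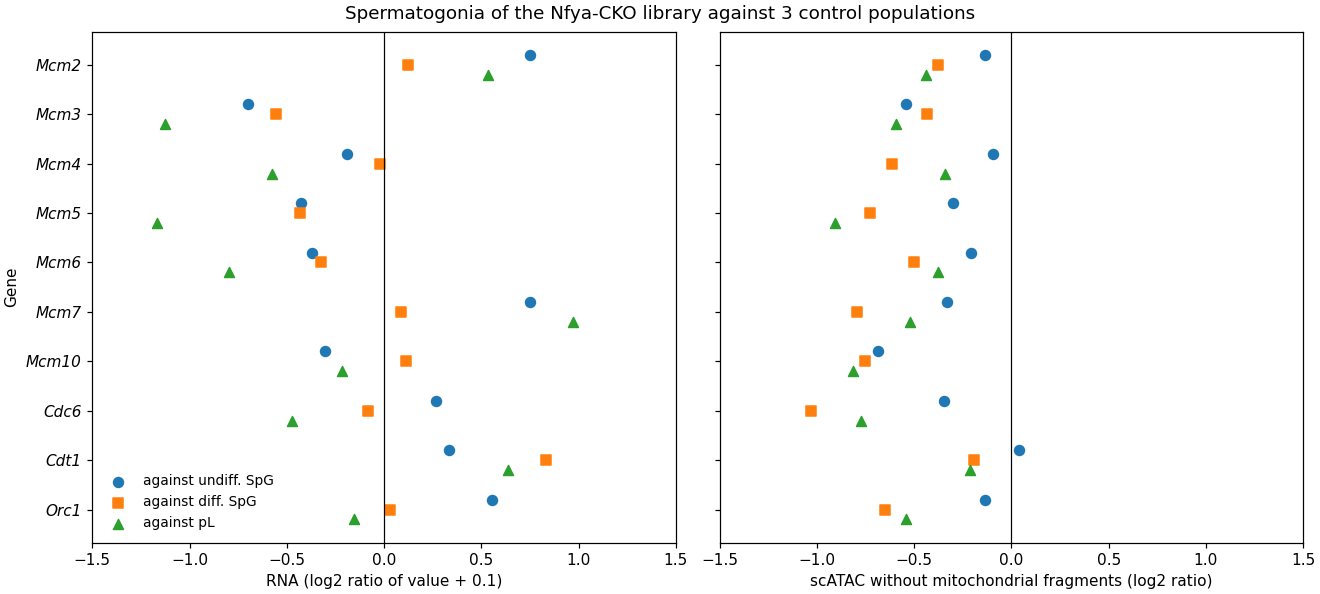
Log2 ratio of SpG Nfya-CKO to undiff. SpG (circles), diff. SpG (squares) and pL (triangles) for each gene, for RNA on the left and for scATAC-seq scaled without mitochondrial fragments on the right. RNA differences lie on both sides of 0, with Mcm2 and Mcm7 at 0.75 against undiff. SpG, and scATAC-seq ratios are below 0 except that of Cdt1 against undiff. SpG.

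Accessibility was read from the scATAC-seq matrix, scaled to a sum of 1000000 per population. The study's methods define promoter accessibility by the coverage around the transcription start site, and whether this matrix holds that measure is not given in the sources used here. Mitochondrial genes took 40.6% of this sum in undiff. SpG, 35.0% in diff. SpG, 31.2% in pL, 45.4% in eL/L/Z and 63.8% in L/Z/eP, so that each ratio is also given after leaving them out. From undiff. SpG to diff. SpG, all 10 genes were higher, against 54.2% of all 18227 genes with a mean of at least 5. In the range of mean signal that the 10 span, 19.1% of genes were lower. Of the 10, 8 were higher by at least 25%, against 30.5% of all genes. Cdc6 went from 28.5 to 50.2, Mcm4 from 47.9 to 75.0 and Orc1 from 41.0 to 64.2. Without mitochondrial genes 9 were higher, against 45.6% of all genes, and 30.9% of the genes in that range were lower. Of the 10, 5 were higher by at least 25%, against 19.4% of all genes and 26% of those in the range of signal that the 10 span. The ratios were 1.60 for Cdc6 and 1.43 for both Mcm4 and Orc1. Between diff. SpG and pL no gene was at least 25% higher or 20% lower, while 26.6% and 7.1% of all genes were, or 20.4% and 9.09% without mitochondrial genes. Among genes in the range of mean signal that the 10 span, these shares were lower, at 9.29% and 1.97%, or 5.65% and 3.84% without mitochondrial genes, so that none of 10 is near the background.

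Most licensing genes lie in the upper part of the range of signal. Among the 8633 genes whose mean signal was between that of the lowest and the highest of the 10 (21.7 to 69.3), 45.1% were at least 25% higher in diff. SpG than in undiff. SpG, and 51.4% in pL than in undiff. SpG, where 9 of the 10 licensing genes were, against 34.1% of all genes. Without mitochondrial genes 3 of 10 were, namely Mcm5 (1.52), Cdc6 (1.35) and Orc1 (1.32), against 12.8% of all genes and 17.3% of those in the same range. For Mcm5 the value was 34.3 in undiff. SpG, 50.4 in diff. SpG, 60.6 in pL, 46.3 in eL/L/Z, 29 in L/Z/eP, 31.1 in mP/lP, 40.6 in D, 45.2 in RS and 66.2 in ES, the last from 124 cells. The lowest values, in L/Z/eP and mP/lP, were in the control populations with the highest mitochondrial share, 63.8% and 60.3%. Without mitochondrial genes Mcm5 was at 57.8 in undiff. SpG, 77.6 in diff. SpG, 88.1 in pL, 84.8 in eL/L/Z, 80.0 in L/Z/eP, 78.5 in mP/lP, 79.0 in D, 75.7 in RS and 117.7 in ES.

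In eL/L/Z and L/Z/eP the values over all fragments were lower than in pL, and the mitochondrial share was higher. The part of that share in the lower values was not tested. From pL to eL/L/Z 6 of 10 genes were at least 20% lower, against 54.3% of all genes, and in L/Z/eP against eL/L/Z 10 of 10, against 86.5%. Of the genes in the same range of signal, 39.7% and 93% were. Without mitochondrial genes these counts were 1, against 17.5% of all genes and 5.93% in the same range, and 0, against 18.4% and 7.8%. Counts of 1 and 0 of 10 are near the shares in the same range. In the first step Cdt1 was the gene at least 20% lower, at a ratio of 0.74. From L/Z/eP to mP/lP 2 genes were at least 25% higher, Cdt1 (1.41) and Mcm7 (1.33), against 21.7% of all genes, and without mitochondrial genes Cdt1 alone (1.28), against 13.4%. In the same range of signal the shares were 11.4% and 4.39%. From pL to eL/L/Z, and from there to L/Z/eP, the RNA of the 10 genes was lower. Their accessibility without mitochondrial genes had median ratios of 0.96 and 0.95 in these steps. Genes in the same range of signal had medians of 1.04 and 0.99. Of the 10 genes 6 were lower in each step, against 37.3% and 52.2% of genes in that range. Between pL and L/Z/eP the genes differed. The scaled signal went from 95.6 to 104.1 for Mcm4, and it was also higher in L/Z/eP for Mcm3, Mcm6, Mcm7 and Mcm10. It was lower for Mcm2 (78.3 to 58.9), Mcm5 (88.1 to 80.0), Cdt1 (66.5 to 41.8), Orc1 (91.5 to 69.8) and Cdc6 (64.7 to 51.8).

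**Figure D5:**
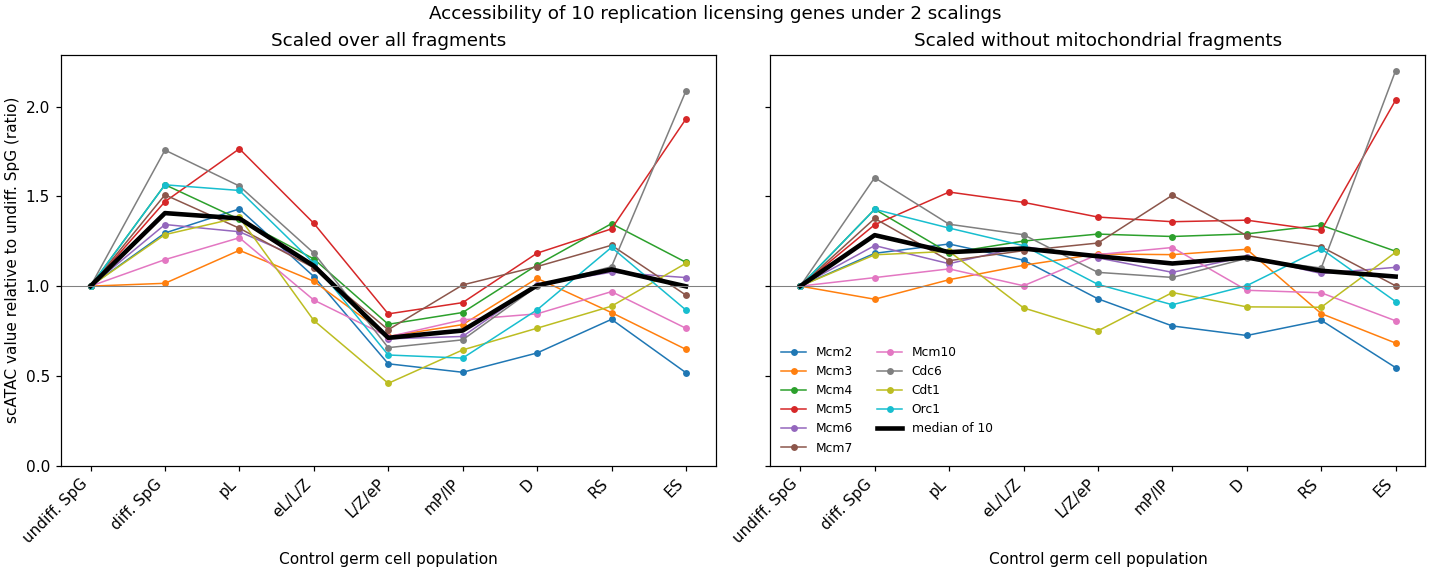
scATAC-seq value of each gene relative to undiff. SpG (y axis, ratio) over the 9 control germ cell populations (x axis), with the median of the 10 genes in black, scaled over all fragments on the left and without mitochondrial fragments on the right. The low values at L/Z/eP and mP/lP on the left are at or above 1 in the median on the right.

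In SpG Nfya-CKO the accessibility of all 10 genes was lower than in undiff. SpG, while 34.9% of all genes were higher. In the same range of signal 88.4% of genes were lower, so that 10 of 10 lower is near the background. Of the 10, 6 were at least 20% lower, against 28.2% of all genes and 41.7% of the genes in the same range. The ratio was lowest for Mcm10 (14.8 against 26.2, 0.57) and Mcm3 (17.6 against 28.1, 0.62), and highest for Cdt1 (30.9 against 33.0, 0.93). Without mitochondrial genes, which took 46.0% in SpG Nfya-CKO, 9 were lower, against 72.9% of genes in the same range. Of all genes 49.8% were higher. Of the 10, 4 were at least 20% lower, namely Mcm3, Mcm7, Mcm10 and Cdc6, against 15.1% of all genes and 20.9% in the same range. Cdt1 was then at 57.2 against 55.7. Mcm2 and Mcm7, whose RNA was higher in SpG Nfya-CKO, had ratios of 0.91 and 0.79 on this scale.

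Against diff. SpG and against pL all 10 genes were at least 20% lower in SpG Nfya-CKO, against 44.1% and 49.0% of all genes, and 70.7% and 77.4% of those in the same range of signal. Without mitochondrial genes it was 9 of 10 in both, against 30.0% and 26.8% of all genes, and 47.5% and 43% in the same range. Mcm5 had the lowest ratio to pL, at 0.53 on this scale (46.9 against 88.1), and Cdc6 the lowest to diff. SpG, at 0.49 (37.8 against 77.2). The mean TSS enrichment of the cells, a measure of signal over background, was 7.99 in SpG Nfya-CKO, 12.7 in undiff. SpG, 15.1 in diff. SpG and 14.8 in pL. Its part in these ratios was not tested.

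The promoters were read because E2F factors are known regulators of licensing genes, and because NF-Y binds the letters CCAAT. RefSeq promoters of GRCm38.p6, from 250 bases before to 50 after the start, were found for 9 of the 10 genes, and that of Mcm4 is not in the table used. The word TTCCCGC counted as E2F-like letters on either strand. The same held for the words TTCGCGC, then TTGGCGC and, with no match in these genes, the word TTGCCGC. The letters CCAAT were also searched on both strands. E2F-like letters were in 7 of 9 genes, against 10.9% of 27025 genes and 18.6% of the 11320 of them tested in RNA, as the members were, and CCAAT in 7 of 9, against 41.1% and 43.0%. Both were in 5 of 9, namely Mcm3, Mcm5, Mcm6, Mcm7 and Orc1, against 4.26% and 7.37%. In the 150 bases nearest the end of the window, CCAAT was in 6 and E2F-like letters in 5 of 9, against 26.3% and 6.49% of all genes and 29.0% and 11.1% of those tested in RNA. In the other lists, E2F-like letters were in 16 of 22 fork genes and 4 of 7 firing genes. They were in 3 of 8 other ORC and licensing control genes, 2 of 5 nucleotide supply genes and 1 of 2 MCM paralogs. A match of letters is a description of the sequence and no evidence of binding.

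The windows given here are those of Mcm5 and Mcm6, which hold both kinds of letters and were highest in pL, Mcm7, which holds both and had another RNA profile, Mcm2, which holds no E2F-like letters, and Cdt1, which holds no CCAAT. Capitals mark the matches on either strand. Overlapping matches run together, as where words on both strands overlap in Mcm6, or where CCAAT overlaps E2F-like letters at the Mcm7 start. They lie at chr8:75109259-75109558 (plus) for Mcm5, chr1:128359656-128359955 (minus) for Mcm6, chr5:138171834-138172133 (minus) for Mcm7, chr6:88898731-88899030 (minus) for Mcm2 and chr8:122567765-122568064 (plus) for Cdt1, each written 5′ to 3′ on the strand of the gene.
Mcm5: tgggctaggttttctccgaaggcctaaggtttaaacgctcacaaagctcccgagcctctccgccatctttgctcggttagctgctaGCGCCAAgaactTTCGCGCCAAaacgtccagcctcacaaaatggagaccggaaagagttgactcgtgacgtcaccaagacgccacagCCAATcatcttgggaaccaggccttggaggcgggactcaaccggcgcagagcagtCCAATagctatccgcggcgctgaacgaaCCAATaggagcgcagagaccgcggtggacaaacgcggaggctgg
Mcm6: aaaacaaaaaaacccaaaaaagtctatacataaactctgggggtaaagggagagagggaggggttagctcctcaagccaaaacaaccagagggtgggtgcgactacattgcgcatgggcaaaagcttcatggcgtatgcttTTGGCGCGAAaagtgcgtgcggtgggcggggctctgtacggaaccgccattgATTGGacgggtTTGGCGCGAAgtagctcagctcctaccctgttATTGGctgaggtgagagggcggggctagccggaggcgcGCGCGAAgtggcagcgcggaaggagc
Mcm7: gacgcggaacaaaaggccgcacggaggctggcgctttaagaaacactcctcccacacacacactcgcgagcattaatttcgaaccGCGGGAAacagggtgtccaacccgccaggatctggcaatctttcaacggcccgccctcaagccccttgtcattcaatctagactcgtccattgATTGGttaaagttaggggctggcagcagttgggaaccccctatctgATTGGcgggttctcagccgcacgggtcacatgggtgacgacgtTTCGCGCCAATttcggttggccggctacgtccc
Mcm2: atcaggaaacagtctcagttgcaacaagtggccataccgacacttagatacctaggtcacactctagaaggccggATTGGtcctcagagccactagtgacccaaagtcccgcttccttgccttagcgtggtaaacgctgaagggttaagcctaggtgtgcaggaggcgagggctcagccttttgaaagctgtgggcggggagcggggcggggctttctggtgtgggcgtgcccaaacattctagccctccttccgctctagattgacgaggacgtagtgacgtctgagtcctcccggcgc
Cdt1: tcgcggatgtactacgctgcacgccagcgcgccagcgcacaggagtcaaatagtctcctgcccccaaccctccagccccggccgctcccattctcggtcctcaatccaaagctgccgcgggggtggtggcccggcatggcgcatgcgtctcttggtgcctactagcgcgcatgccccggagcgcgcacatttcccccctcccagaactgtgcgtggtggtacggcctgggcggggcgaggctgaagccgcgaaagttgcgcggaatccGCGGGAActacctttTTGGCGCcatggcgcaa

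The Mcm5 window holds 3 CCAAT and 3 E2F-like matches, the Mcm6 window 2 and 5, and this Mcm7 window 3 and 3. Mcm7 has a further entry in the table, with 1 match of each kind. Mcm2 holds 1 CCAAT, and Cdt1 holds 2 E2F-like matches, both after the start. Of the 5 genes with both kinds of letters, Mcm3, Mcm5, Mcm6 and Orc1 were highest in pL and Mcm7 in diff. SpG. Mcm2 and Mcm10 held no E2F-like letters, and their ratios of highest to lowest RNA were 23.0 and 6.46. A relation of letters to RNA profile was not tested.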

How the data were processed

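RNA and accessible chromatin were measured in nuclei of mouse testes by simultaneous scRNA-seq and scATAC-seq (BD Rhapsody), with 1 library for each of 5 conditions and assay. The submitters' processing notes name STAR 2.7.10b, BWA 0.7.12, bedtools 2.27.1, Seurat 5.2.1, ArchR 1.0.3 and mm10. Cells of scRNA-seq with fewer than 500 genes, or with 5% or more of UMIs from mitochondria, were removed by the authors, who set limits of 1000 fragments and a TSS enrichment of 4 for scATAC-seq. Doublets were removed by the authors with DoubletFinder in scRNA-seq and ArchR in scATAC-seq, and no further doublet call was made. Promoter accessibility is defined in the study as mean normalized coverage within 200 bp of the TSS, but the deposited scATAC-seq values sum to 10000 before the log and include mitochondrial genes, and whether they are this measure is not given in the sources used here. Per cell, the authors deposited an unnormalized UMI or fragment count. The percent of mitochondrial UMIs and the TSS enrichment, a ratio of coverage, were deposited too. The deposited matrices hold natural log values, the log of 1 plus a mean that sums to 10000 per population, pooled over libraries, as found from the values. 20 further columns were not used.

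Values were turned back from the log with Python 3.11.15, numpy 2.4.6 and pandas 2.3.3, and drawn with matplotlib 3.10.9. RNA was kept per 10000 UMIs and scATAC-seq was scaled to 1000000. RNA ratios used a pseudocount of 0.1 and a minimum mean of 0.05, and a gene counted as apart at 2-fold. scATAC-seq ratios used no pseudocount and a minimum mean of 5, and a gene counted as apart when at least 25% higher or, as the inverse, 20% lower. 9 comparisons of populations were made, by size alone. The script was tested on simulated data. Named genes were the 10 members, the lists of licensing, firing and paralog genes, Pcna and Rrm2, the extremes of a list, markers, and the 5 genes of most like pattern. Members and lists were chosen with earlier results of these data known. Alternatives covered pseudocounts, scaling, fold, filters and promoter window. Locations are from GENCODE M21 and promoters from RefSeq.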

Additional observations from a re-analysis of the deposited data

How the results depend on the processing

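No paired analysis was possible because each condition is 1 library and the matrices pool libraries. For the same reason no library could be left out. Over the alternatives, 225 counts and medians kept within the limits set (1.5-fold for a count or an RNA median, a ratio within 25% for a scATAC-seq median) and 47 moved, and of the further values 453 kept and 24 moved. None changed sign past a threshold. The number of genes highest in pL was 6 throughout.

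For RNA, a pseudocount of 0.01 gave 1 gene 2-fold lower in eL/L/Z than in pL, 5 lower in L/Z/eP than in eL/L/Z and 1 higher in SpG Nfya-CKO than in pL. A pseudocount of 0.5 gave 0 lower in L/Z/eP, in mP/lP and in SpG Nfya-CKO against pL, and so did a 3-fold limit. Scaling by the median ratio gave 1 lower in eL/L/Z. A 1.5-fold limit gave 2 higher in diff. SpG than in undiff. SpG, 1 higher and 1 lower in pL than in diff. SpG, 3 higher in pL than in undiff. SpG, 4 lower in eL/L/Z, 8 lower in L/Z/eP, 1 higher and 2 lower in mP/lP, 2 higher and 1 lower in SpG Nfya-CKO than in undiff. SpG, 1 higher than in diff. SpG and 2 higher than in pL. Of the settings chosen after seeing the data, subtraction of ES and somatic RNA gave 1 higher and 0 lower in SpG Nfya-CKO than in pL, and subtraction of SpG Nfya-CKO RNA from diff. SpG gave 1 gene higher in SpG Nfya-CKO than in diff. SpG. Pseudocount and limit act by their own construction, since low genes shrink with the former.

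For scATAC-seq, scaling without mitochondrial genes and scaling by the median ratio gave the same counts. These were 5 higher in diff. SpG and 3 in pL than in undiff. SpG, 1 lower in eL/L/Z, 0 lower in L/Z/eP and 1 higher in mP/lP. The median log2 ratio was -0.0597 and -0.0576 in eL/L/Z, -0.0802 and -0.0320 in L/Z/eP, and -0.532 and -0.537 in SpG Nfya-CKO against pL. A 1.5-fold limit gave 4 higher in diff. SpG, 3 higher in pL than in undiff. SpG, 1 lower in eL/L/Z, 6 lower in L/Z/eP, 0 higher in mP/lP and 2 lower in SpG Nfya-CKO than in undiff. SpG. Depth was lowest in the unknown cells, with 99 cells in RNA and 54 in scATAC-seq, and next lowest in ES, with 124 cells in scATAC-seq.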

Other observations

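The genes whose RNA most resembled the mean profile of the 10 genes over the 9 control germ cell populations were Aig1, Plcb3, Sox11, Triobp and Trnp1, with r from 0.992 to 0.998, out of 10386 genes that had a mean of 0.2 or more. Aig1 was at 0.985 UMIs per 10000 in undiff. SpG, 1.10 in diff. SpG, 1.29 in pL, 0.768 in eL/L/Z and 0.313 in L/Z/eP, and at 0.926 in SpG Nfya-CKO. Sox11, a transcription factor, was at 1.09 in undiff. SpG, 1.53 in pL and 0.133 in L/Z/eP, and at 0.694 in SpG Nfya-CKO. With a pseudocount of 0.5 in place of 0.1, 13 of the 20 most similar genes were the same. The r describe 9 pooled columns and were not tested.

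RNA and accessibility of the same gene were set side by side over the 9 control germ cell populations. Scaled without mitochondrial genes, Pearson's r was 0.885 for Orc1 and 0.714 for Mcm2, and -0.362 for Mcm4 and -0.308 for Mcm5. Over all fragments it was 0.783, 0.876, 0.351 and -0.0219 for these genes, so that the sign for Mcm4 turns with the scaling. It also turned for Mcm7, from 0.505 to -0.0451 without mitochondrial genes, and for Cdc6, from 0.254 to -0.0329, while the other 4 genes had r above 0 on both scales. These values describe pooled columns that share libraries and depth.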
